A study of Homo sapiens with 13 samples.

Results

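The expression of 10 genes of the NF-κB pathway was measured in cultured human osteoblasts by mRNA-seq. They were taken as the rows of the raw count table whose Ensembl identifiers map to NFKB1, NFKB2, RELA, RELB, NFKBIA, TNFAIP3, NFKBIZ, BIRC3, TNFAIP2 and ICAM1, which are 10 of 43836 genes in the table. All 10 passed the filter on low counts, as did 17092 genes in all.

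NF-κB is a family of transcription factors that form dimers. In resting cells, inhibitors of the IκB family hold the dimers in the cytoplasm. Cytokines such as TNF and IL-1, or microbial products, activate the IκB kinases, the inhibitors are degraded, and the dimers enter the nucleus and bind kappa-B sites. Several of their targets are their own inhibitors and subunits, so the mRNA of these genes is widely read as a record of the pathway's activity. In bone, osteoblasts and osteoclasts both use the pathway.

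The cells were hFOB 1.19, a line from human fetal osteoblasts that was immortalized with a temperature-sensitive SV40 large T antigen. All groups used the same line, so they stand for 1 line and not for several donors. Positive controls were grown with 10% FBS and negative controls without it, both with the DMSO vehicle per the methods. The other groups were starved of serum in the same way and given a compound at 1 µg/mL. RES stands for resveratrol, a stilbene, and POG for the anthocyanin peonidin-3-O-glucoside, while DEG is a code that the labels do not spell out. The treatment notes name an anthocyanin, delphinidin-3-glucoside, beside the other compounds. There were 2 libraries of the positive control, 2 of the negative control, 3 of RES, 3 of POG and 2 of DEG, and 1 more sample labelled DEG was not analysed here. Nothing in the labels says that libraries of a group came from separate cultures, so the p-values measure the spread between these libraries, which may be technical.

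Libraries held 38464619 to 51416358 reads on genes, and TMM scaling factors ran from 0.961 to 1.01, lowest in the positive controls. Each of the 10 genes had 1108 to 19481 reads in every library. Of the osteoblast markers, COL1A1 (2460 to 2870 CPM, the TMM-scaled share of reads), COL1A2, SPARC and RUNX2 (44.3 to 51.6 CPM) were plainly present. The other markers on the list were low. ALPL was at 3.22 to 6.66 CPM, SPP1 at 0.955 to 2.34 and BGLAP at 0.425 to 2. IBSP and SP7, markers of later osteoblasts, were at or near 0. The 4 markers of immune cells, which are rich in NF-κB mRNAs, together reached 0.34 to 1.52 CPM, with CD3E at 0 in every library and PTPRC at no more than 0.156 CPM. That sum was lowest in POG (0.34 to 0.818) and highest in the positive controls (1.42 to 1.52). Of the 4, only CD14 (0.272 to 1.42 CPM) passed the filter on low counts, so the sum mostly follows that gene. Endothelial markers together reached 3.2 to 8.79 CPM, lowest in the positive controls and highest in RES (7.22 to 8.79). Of the osteoclast markers, CTSK was at 8.8 to 12.4 CPM and ACP5 at 0.465 to 1.55. Their part in the results was not tested. In bulk RNA, fewer cells of a type and less RNA per cell cannot be told apart.

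The promoters of the genes were read first, because kappa-B sites near a start site are the letters through which the pathway acts on its own genes. RefSeq promoters (GRCh38.p14) were found for 9 of the 10 genes, with RELB as the exception, at 14 start sites. The kappa-B consensus was taken as 10 bases: GGG, a purine, any 2 bases, 2 pyrimidines and CC. It was searched on both strands in the 250 bases before each start. It stood in 8 of the 14 windows, against 9.96% of 35116 promoters of the same length, and in 6 of the 9 genes. The genes were chosen as parts of the pathway, so these shares are a description and not a test. Windows of NFKB1, NFKB2, NFKBIA, TNFAIP3, NFKBIZ and BIRC3 held it, and those of RELA, TNFAIP2 and ICAM1 did not. Kappa-B sites of other forms were not searched, so a window without this pattern may still hold one. The TNFAIP2 window (chr14:103123211-103123510) lies inside the annotated gene, which begins at 103121476, so the bases before that first position were not searched. The match nearest to a start in each of the 6 genes is shown here, 5′ to 3′ on the gene's strand, with the match in capitals.
NFKB1: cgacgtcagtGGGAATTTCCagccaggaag
NFKB2: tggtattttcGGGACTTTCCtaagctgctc
NFKBIA: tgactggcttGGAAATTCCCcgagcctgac
TNFAIP3: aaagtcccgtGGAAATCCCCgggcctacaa
NFKBIZ: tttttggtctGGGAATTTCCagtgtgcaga
BIRC3: tattaccgctGGAGTTCCCCtaagtcctaa
These windows lie at chr4:102501300-102501329 on the plus strand for NFKB1, chr10:102395674-102395703 (plus) for NFKB2, chr14:35404811-35404840 (minus) for NFKBIA, chr6:137867194-137867223 (plus) for TNFAIP3, chr3:101827757-101827786 (plus) for NFKBIZ and chr11:102317339-102317368 (plus) for BIRC3. The capitals of NFKB1 and NFKBIZ spell the same 10 bases. For NFKBIA, TNFAIP3 and BIRC3 the match shown is to the opposite strand, and that of NFKBIA, read on that strand, spells those 10 bases too. In NFKB2, 5 matches were spread over 2 of its 3 windows, 1 pair of them overlapping, and TNFAIP3 and BIRC3 each held 2. A match is a description of letters, and binding was not measured.

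Per kilobase of exon, ICAM1 had the highest level of the 10 genes and BIRC3 the lowest. ICAM1, the cell adhesion molecule that leukocytes bind, was at 95.5 CPM per kb over all 12 libraries, above 98.3% of the genes tested. NFKBIA and NFKB2 followed at 68.5 and 65.4 CPM per kb. BIRC3 stood at 5.60 CPM per kb, above 59% of genes, and TNFAIP2 at 7.03. With the length of 1 canonical transcript in place of all exons, a choice made after seeing the data, the order at the top changed. NFKBIA then led at 149 CPM per kb, NFKB2 followed at 121, ICAM1 at 111, and NFKB1 moved from 8.35 to 32.3. The ratio of the highest group mean to the lowest ran from 1.10 for RELA to 1.47 for TNFAIP2, so every difference among the 5 groups was under 1.5-fold.

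**Figure D1:**
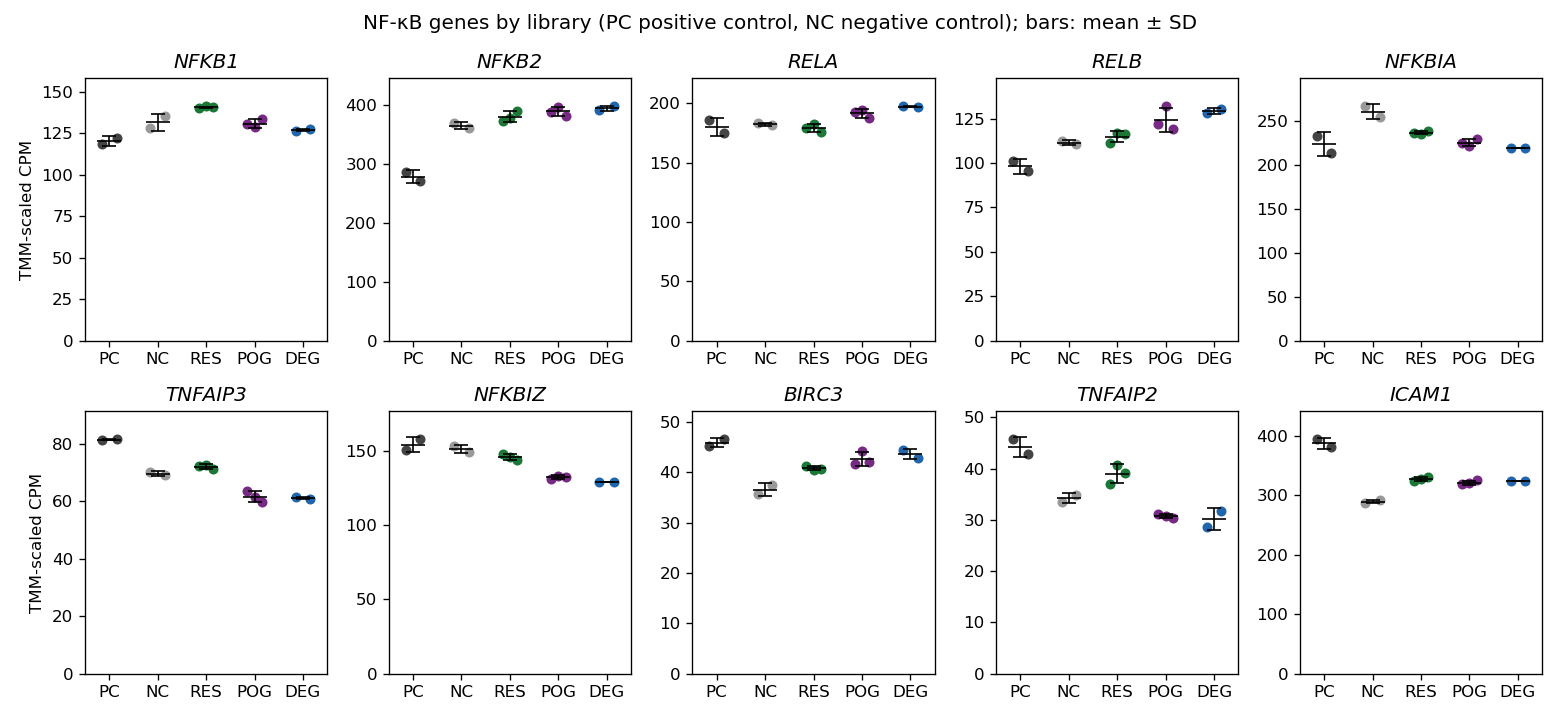
TMM-scaled CPM of the 10 genes (y axes, each from 0) in every library of the 5 groups (x axes), with 1 point a library and bars at the mean ± SD of 2 or 3 libraries. NFKB2 is lowest in the positive controls and ICAM1 is highest there, while NFKBIA is highest in the negative controls.

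Among the subunits, NFKB2 and RELB fell with serum and rose with DEG. NFKB2 encodes the precursor of a subunit of the non-canonical branch of the pathway (ENSG00000077150, chr10:102394110-102402524). It had 286.1 and 270.2 CPM in the positive controls and 368.9 and 360.7 CPM in the negative controls. RES libraries gave 372.5, 377.5 and 390.2 CPM, POG libraries 388.7, 397.0 and 382.0 CPM, and DEG libraries 391.4 and 397.5 CPM. The positive controls lay below every serum-free library, and the 3 compounds lay above the negative controls. NFKB2 was downregulated with serum (log2 fold change −0.39 ± 0.03 SE, edgeR FDR 1.53e-22). With DEG it was upregulated by 0.11 ± 0.03 (FDR 0.0389), a call lost without either library of either group (FDR 0.122 and 0.291 without negative control 1 and 2, and 0.155 and 0.293 without DEG 1 and 2). For RES the difference was 0.06 (95% interval −0.0030 to 0.12, FDR 0.318). In POG the difference was 0.09 (95% interval 0.03 to 0.16, FDR 0.053), and 5 of 12 alternative settings called it.

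RELB, the usual partner of the NFKB2 product (ENSG00000104856, chr19:45001461-45038192), had 101.1 and 95.2 CPM in the positive controls and 112.4 and 110.5 CPM in the negative controls. RES libraries gave 111.4, 116.9 and 116.2 CPM, POG libraries 121.8, 131.8 and 119.1 CPM, and DEG libraries 128.1 and 130.3 CPM. POG and DEG were both above the negative controls with no overlap, and RES overlapped them. RELB was lower in the positive controls (−0.18 ± 0.04, FDR 5.01e-04) and rose with POG (0.16 ± 0.04, FDR 0.00392) and DEG (0.21 ± 0.04, FDR 2.37e-04). The call in POG was lost without the highest POG library, replicate 2 (FDR 0.0842), and without negative control 2 (FDR 0.100). For RES the difference was 0.04 (95% interval −0.04 to 0.13).

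NFKB1 and RELA encode the subunits of the classical dimer, and of the 10 genes they had the smallest ratios of highest to lowest group mean, 1.17 and 1.10. NFKB1 (ENSG00000109320, chr4:102501330-102617302) had 118.2 and 122.2 CPM in the positive controls and 128.0 and 135.2 CPM in the negative controls. RES libraries gave 140.2, 141.0 and 140.5 CPM, POG libraries 130.5, 128.4 and 133.3 CPM, and DEG libraries 126.4 and 127.3 CPM. The 3 RES libraries were the highest of the 12, and POG overlapped the negative controls. NFKB1 was lower with serum (−0.13 ± 0.04, FDR 0.0045), and without negative control 2 the difference was −0.09 with an FDR of 0.198. No compound passed the test against the negative control, with differences of 0.09 for RES (FDR 0.0808), −0.01 for POG and −0.05 for DEG.

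RELA (ENSG00000173039, chr11:65653599-65663090, minus strand) encodes the subunit that carries the activation domain of the classical dimer. It had 185.8 and 174.7 CPM in the positive controls and 183.5 and 181.6 CPM in the negative controls. RES libraries gave 179.3, 182.5 and 175.7 CPM, POG libraries 193.0, 194.9 and 187.7 CPM, and DEG libraries 197.5 and 197.0 CPM. POG and DEG lay above the negative controls without overlap, and the positive controls and RES overlapped them. None of the 4 differences from the negative control passed the test. They were −0.02 with serum (95% interval −0.09 to 0.06), −0.03 for RES (−0.09 to 0.04), 0.07 for POG (0.0047 to 0.14) and 0.11 for DEG (0.04 to 0.19, FDR 0.0545). The interval for DEG leaves out 0, and 5 of 11 alternative settings called it.

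NFKBIA was lower in every group than in the negative control. It encodes IκBα, the inhibitor that is resynthesized first after activation and closes the main feedback loop (ENSG00000100906, chr14:35401079-35404749, minus strand). The negative controls had 266.3 and 254.3 CPM, the 2 highest values, and the positive controls 232.7 and 213.4 CPM. RES libraries gave 236.6, 234.8 and 238.1 CPM, POG libraries 225.3, 221.6 and 228.9 CPM, and DEG libraries 219.2 and 218.9 CPM. No library of any other group reached the negative controls. NFKBIA fell with serum (−0.22 ± 0.04, FDR 4.44e-07), RES (−0.14 ± 0.03, FDR 0.00418), POG (−0.21 ± 0.03, FDR 9.78e-07) and DEG (−0.25 ± 0.04, FDR 1.40e-07). These comparisons share the 2 negative control libraries. Without negative control 1 the call for RES was lost (−0.10, FDR 0.233).

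TNFAIP3 encodes A20, the ubiquitin-editing enzyme that ends signalling upstream of the IκB kinases (ENSG00000118503, chr6:137867214-137883314). The positive controls had 81.2 and 81.4 CPM and the negative controls 70.1 and 69.0 CPM. RES libraries gave 72.3, 72.6 and 71.2 CPM, POG libraries 63.5, 61.5 and 59.7 CPM, and DEG libraries 61.3 and 60.8 CPM. Serum and the anthocyanin POG were thus on opposite sides of the negative control, and DEG was on the side of POG. TNFAIP3 rose with serum (0.23 ± 0.04, FDR 3.22e-06) and fell with POG (−0.18 ± 0.04, FDR 5.46e-04) and DEG (−0.19 ± 0.04, FDR 0.00157). The call for DEG was lost without negative control 1 (−0.18, FDR 0.0535). RES differed from the negative control by 0.05 (95% interval −0.03 to 0.13).

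NFKBIZ encodes IκBζ, a nuclear member of the inhibitor family that acts as a cofactor at secondary targets (ENSG00000144802, chr3:101827991-101861022). It had 150.9 and 158.0 CPM in the positive controls and 153.7 and 149.6 CPM in the negative controls. RES libraries gave 148.1, 146.1 and 144.5 CPM, POG libraries 131.1, 133.7 and 132.7 CPM, and DEG libraries 129.1 and 129.4 CPM. POG and DEG lay below every other library, and the 2 kinds of controls overlapped. NFKBIZ fell with POG (−0.19 ± 0.03, FDR 2.74e-06) and DEG (−0.23 ± 0.04, FDR 6.47e-07), and both calls held in every alternative setting. The differences with serum (0.03, 95% interval −0.05 to 0.10) and RES (−0.05, −0.12 to 0.01) did not pass.

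BIRC3 and ICAM1 were higher in every group than in the negative control. BIRC3 encodes cIAP2, a ubiquitin ligase of TNF receptor complexes that limits cell death (ENSG00000023445, chr11:102317484-102339403). It had 45.3 and 46.6 CPM in the positive controls and 35.7 and 37.5 CPM in the negative controls. RES libraries gave 41.3, 40.5 and 40.7 CPM, POG libraries 41.7, 44.2 and 42.1 CPM, and DEG libraries 44.4 and 43.0 CPM. The negative controls were the 2 lowest libraries. BIRC3 rose with serum (0.33 ± 0.05, FDR 8.14e-09), RES (0.16 ± 0.05, FDR 0.0191), POG (0.22 ± 0.05, FDR 1.94e-04) and DEG (0.25 ± 0.05, FDR 1.18e-04). For RES the call was lost without negative control 1 (FDR 0.325) and without RES 1 (FDR 0.0694).

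ICAM1 (ENSG00000090339, chr19:10271093-10286615) had 394.2 and 381.3 CPM in the positive controls and 288.0 and 291.5 CPM in the negative controls. RES libraries gave 324.8, 328.4 and 331.3 CPM, POG libraries 318.8, 320.1 and 325.3 CPM, and DEG libraries 323.9 and 324.1 CPM. The 3 compounds lay in a narrow band between the controls and overlapped neither. Compared with the negative control, ICAM1 was higher by 0.42 ± 0.03 in the positive control (FDR 9.95e-31), by 0.18 ± 0.03 in RES (FDR 2.44e-06), by 0.15 ± 0.03 in POG (FDR 1.17e-04) and by 0.16 ± 0.03 in DEG (FDR 2.39e-04). Each of these calls held in every alternative setting. On the opposite strand the annotation places ICAM4-AS1 over 815 exonic bases of ICAM1, and the strand setting of the count is not given in the sources used here, so reads of the pair cannot be told apart.

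TNFAIP2, a TNF-inducible gene with a part in membrane protrusions (ENSG00000185215, chr14:103121476-103137439), separated RES from the anthocyanin POG and from DEG. It had 45.7 and 42.9 CPM in the positive controls and 33.5 and 34.9 CPM in the negative controls. RES libraries gave 37.1, 40.7 and 39.2 CPM, POG libraries 31.1, 30.7 and 30.4 CPM, and DEG libraries 28.6 and 31.7 CPM. RES was above the negative controls and POG and DEG were below them, with no overlap. TNFAIP2 rose with serum (0.37 ± 0.06, FDR 4.10e-09) and RES (0.19 ± 0.05, FDR 0.0105) and fell with POG (−0.15 ± 0.05, FDR 0.0457) and DEG (−0.18 ± 0.06, FDR 0.0417). Single libraries decided the calls against the negative control for all 3 compounds. For RES it was lost without negative control 1 (FDR 0.222) or RES 2 (FDR 0.0895). For POG it was lost without any 1 of the 5 libraries (FDR 0.0816 to 0.371), and for DEG without DEG 1 (FDR 0.550) or either negative control (FDR 0.0990 and 0.329). edgeR's quasi-likelihood test put it at 0.0617 for POG and 0.0619 for DEG.

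Short exonic overlaps with neighbours bear on 5 further genes. TNFAIP3, RELA, BIRC3 and TNFAIP2 each share 24 to 126 exonic bases with a long non-coding gene on the opposite strand, and NFKBIZ shares 194 exonic bases with NXPE3 on its own strand.

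**Figure D2:**
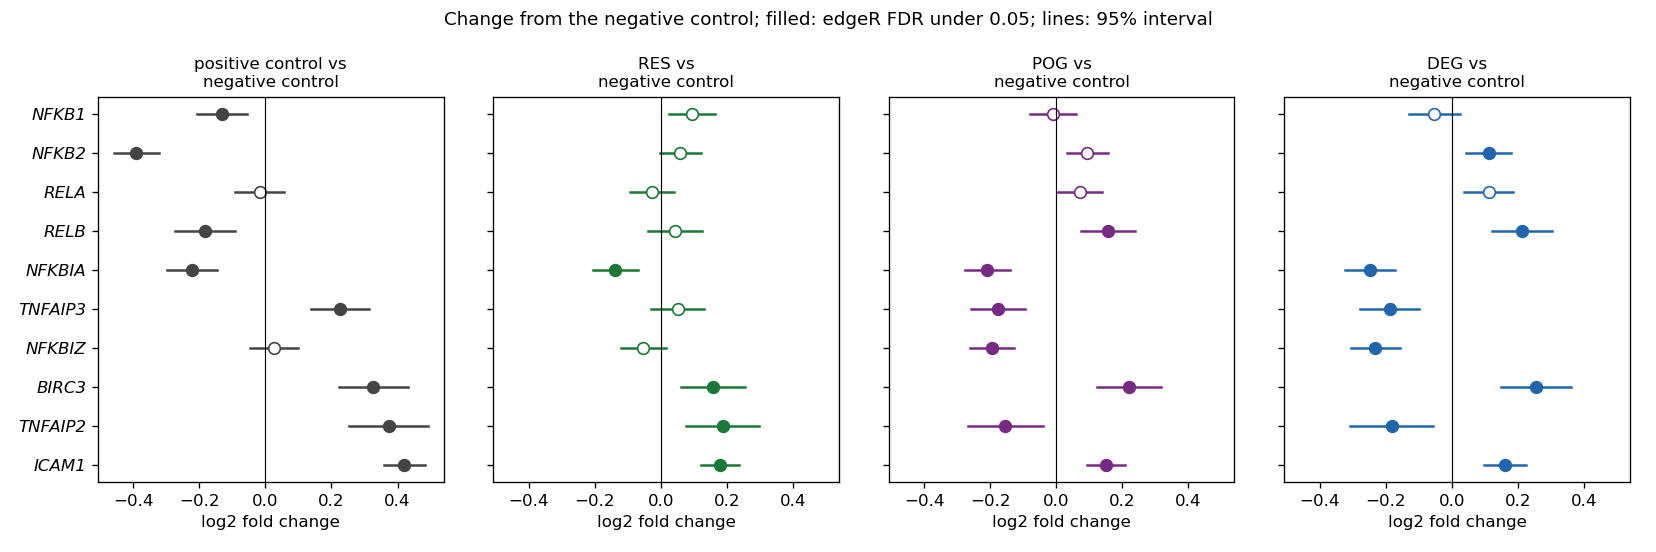
Log2 fold change against the negative control (x axis) of the 10 genes (y axis) for the positive control, RES, POG and DEG, with lines for the 95% interval and filled points for edgeR FDR under 0.05. NFKBIA is below 0 and BIRC3 and ICAM1 are above 0 in all 4 panels, while TNFAIP3 and TNFAIP2 are above 0 with serum and below 0 with POG and DEG.

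Serum against serum-free medium asks how the genes differ between growing and starved osteoblasts. In the positive controls, 4 of the 10 genes were higher (TNFAIP3, BIRC3, TNFAIP2 and ICAM1) and 4 were lower (NFKB1, NFKB2, RELB and NFKBIA), against 21.4% of all genes tested that were higher and 20.9% that were lower. The genes that rose were feedback and target genes, and 3 of the 4 subunits fell. Both groups' libraries did not overlap for 8 of the 10 genes, and the share of all genes without overlap was not counted. The median log2 fold change of the 10 genes was 0.00 and that of all genes −0.01, and the median absolute change was 0.22 against 0.21. Here and below, the shares of all genes are a description and not a matched background. They cover all 17092 genes tested, which were not matched on read count to the 10 genes or to the pathway lists. Whether genes with like read counts have the same shares of calls was not tested.

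RES against the negative control had the fewest calls of the compounds. BIRC3, TNFAIP2 and ICAM1 were higher, 3 of 10 beside 4.94% of all genes, and NFKBIA was lower, 1 of 10 beside 6.21%. Only the call for ICAM1 held in every one of the 12 alternative settings, and without negative control 1 it was the single call left. The median absolute change of the 10 genes was 0.08 and that of all genes 0.10. The 10 genes were thus called more often than all genes without a larger median change. Their share of calls is therefore not read as a stronger response to RES.

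POG against the negative control had RELB, BIRC3 and ICAM1 higher, 3 of 10 beside 5.93% of all genes. NFKBIA, TNFAIP3, NFKBIZ and TNFAIP2 were lower, 4 of 10 beside 8.57%. Their median absolute change was 0.16, against 0.11 for all genes, and 5 of the 7 calls held in all 12 alternatives. The median signed change was 0.03.

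DEG against the negative control had NFKB2, RELB, BIRC3 and ICAM1 higher, 4 of 10 beside 3.52% of all genes. NFKBIA, TNFAIP3, NFKBIZ and TNFAIP2 were lower, 4 of 10 beside 6.11%. No DEG library overlapped a negative control library for any of the 10 genes, with 2 libraries in each group. The share of all genes without overlap was not counted, so this is not a result particular to the 10 genes. The median absolute change was 0.18, against 0.10 for all genes, and 5 of the 8 calls held in all 11 alternatives. The calls for NFKB2, TNFAIP3 and TNFAIP2 did not, and without negative control 1 the count was 5.

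The compounds were then compared with each other at the same dose by mass, 1 µg/mL. Equal mass is not equal molar dose, so compound and molar dose cannot be told apart here. POG is an anthocyanin, a glycosylated flavonoid, and RES a stilbene without a sugar. In POG, 2 of the 10 genes were higher than in RES (RELA and RELB, beside 13.7% of all genes) and 4 were lower (NFKB1, TNFAIP3, NFKBIZ and TNFAIP2, beside 14.1%). TNFAIP2 differed most (−0.34 ± 0.05, FDR 1.15e-10), then TNFAIP3 (−0.23 ± 0.04, FDR 1.98e-08) and NFKBIZ (−0.14 ± 0.03, FDR 1.08e-04), and these 3 calls held in all 13 alternatives. NFKB1 differed by −0.10 ± 0.03 (FDR 0.00809), RELA by 0.10 ± 0.03 (FDR 0.0116) and RELB by 0.11 ± 0.04 (FDR 0.0137). These last calls were lost without POG 2 (FDR 0.0693, 0.0820 and 0.224). That for RELA was lost without POG 1 (FDR 0.0588) or RES 3 (FDR 0.0898) as well, and that for RELB without RES 1 (FDR 0.113). NFKB2, NFKBIA, BIRC3 and ICAM1 did not pass, with intervals of −0.02 to 0.09, −0.13 to −0.01, −0.02 to 0.15 and −0.08 to 0.02.

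DEG differed from RES in 7 of the 10 genes. RELA (0.14 ± 0.03, FDR 0.00152) and RELB (0.17 ± 0.04, FDR 8.01e-04) were higher, 2 of 10 beside 10.3% of all genes. NFKB1, NFKBIA, TNFAIP3, NFKBIZ and TNFAIP2 were lower, 5 of 10 beside 10.8%. TNFAIP2 fell by 0.37 ± 0.06 (FDR 2.32e-09), TNFAIP3 by 0.24 ± 0.04 (FDR 5.32e-07), NFKBIZ by 0.18 ± 0.03 (FDR 2.37e-05) and NFKB1 by 0.15 ± 0.03 (FDR 8.98e-04). NFKBIA fell by 0.11 ± 0.03 (FDR 0.0207), a call that was lost without RES 1 (FDR 0.0569), RES 3 (0.0728), DEG 1 (0.150) or DEG 2 (0.157). The other 6 calls held in all 12 alternatives. POG against RES and DEG against RES share the RES libraries.

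Between DEG and POG, 0 of the 10 genes passed edgeR's exact test, beside 0.55% of all genes higher in DEG and 0.497% lower. None had an unadjusted p under 0.05, and neither DESeq2 nor the quasi-likelihood test called any. The differences ran from −0.04 to 0.06, and the 95% intervals of all 10 genes lay between −0.14 and 0.14. Differences of up to that size are therefore not excluded by these libraries. In each of the 3 comparisons between compounds the FDR was taken over all 17092 genes.

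**Figure D3:**
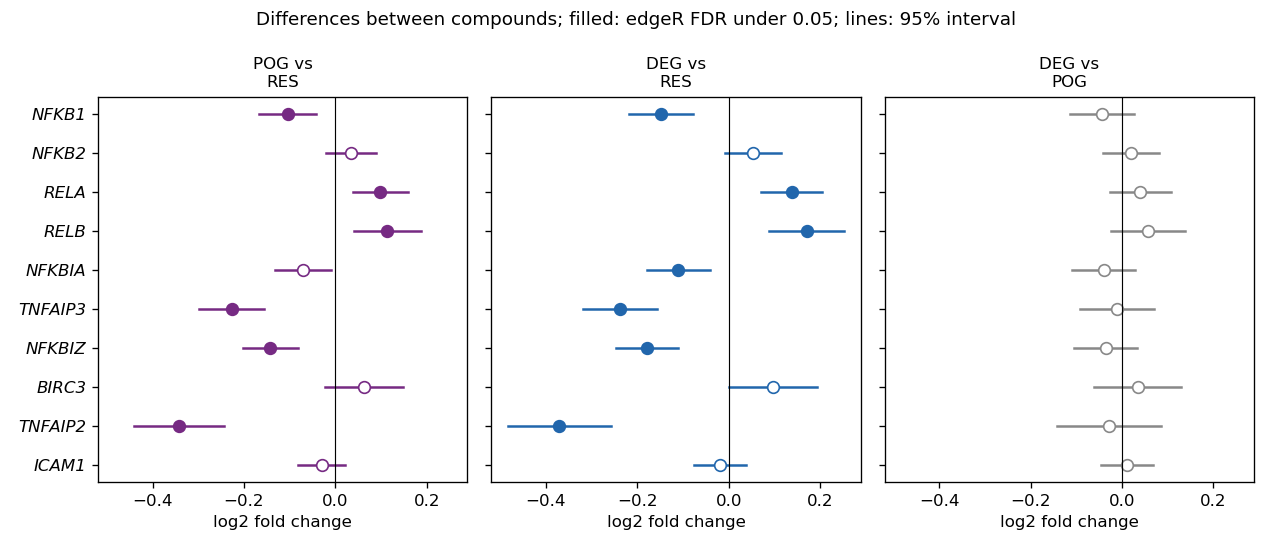
Log2 fold change between compounds (x axis) for the 10 genes (y axis), for POG against RES, DEG against RES and DEG against POG, with lines for the 95% interval and filled points for edgeR FDR under 0.05. TNFAIP2 is farthest from 0 in both comparisons with RES, and in DEG against POG no point is filled.

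Serum was also set beside the serum-free cells that had a compound. Against RES, 7 of the 10 genes passed in either direction, beside 45.7% of all genes. Against POG 9 passed, beside 47.9%, and against DEG 7 passed, beside 43.4%. NFKB2 was the subunit farthest from the compounds, by −0.45, −0.48 and −0.50 in turn. TNFAIP2 was higher with serum than with RES by 0.18 ± 0.05, and than with POG or DEG by 0.53 ± 0.05 and 0.56 ± 0.06. Without positive control 1, or on plain library totals, the call for TNFAIP2 against RES was lost (FDR 0.0539 and 0.0630). With all libraries, NFKBIA did not pass against any compound, with differences of −0.08 (95% interval −0.15 to −0.02), −0.01 (−0.08 to 0.05) and 0.03 (−0.05 to 0.10). The difference from RES was called by the quasi-likelihood test (FDR 0.0423) and on plain library totals (FDR 1.23e-04), and without positive control 1 it was −0.14 (FDR 2.68e-05). NFKBIA also passed against POG without positive control 1 (−0.08, FDR 0.0408), and against DEG without positive control 2 (0.09, FDR 0.0119). BIRC3 was close to the threshold against POG (0.11 ± 0.05, FDR 0.0492), a call that was lost without either positive control library or without POG 1 or 3 (FDR 0.0560 to 0.175). The BIRC3 call was also lost on plain library totals (FDR 0.518), with the quasi-likelihood test (FDR 0.0555) and with DESeq2 (adjusted p 0.0780). With no filter on low counts its FDR was 0.155, and with dispersions from the pair compared 0.0976. RELA against POG (−0.09, FDR 0.0299) was lost without positive control 2 (−0.04), POG 1 (FDR 0.0868) or POG 2 (FDR 0.114). It was lost as well with no filter on low counts (FDR 0.0526) and with dispersions from the pair compared (FDR 0.112).

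A pair of ratios within each library, chosen after the values were seen, does not depend on how libraries are scaled. NFKBIA over RELA, in reads, was 1.25 and 1.22 in the positive controls, while the negative controls had 1.45 and 1.40. RES libraries gave 1.32, 1.29 and 1.36, POG libraries 1.17, 1.14 and 1.22, and DEG libraries 1.11 and 1.11. The ratio was highest in the negative controls and lowest in DEG. TNFAIP2 over ICAM1 was 0.116 and 0.113 in the positive controls, and the negative controls had 0.117 and 0.120. RES libraries had 0.114, 0.124 and 0.118. It was 0.0976, 0.0960 and 0.0936 in POG and 0.0884 and 0.0978 in DEG, below every library of the other 3 groups.

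The rest of the pathway was described from lists of 96 further genes by role, of which 91 passed the filter on low counts. Of these 91, 27 were higher and 26 lower with serum (29.7% and 28.6%, beside 21.4% and 20.9% of all genes). With RES 14 were higher and 11 lower (15.4% and 12.1%, beside 4.94% and 6.21%). With POG 3 were higher and 24 lower, and with DEG 4 were higher and 22 lower. Lower calls thus outnumbered higher ones with POG and DEG, where the shares of all genes called lower were 8.57% and 6.11%. Over the alternative settings the lower count ran from 19 to 33 for POG and from 18 to 26 for DEG, and the higher count did not exceed 5 and 7. With RES the higher count ran from 5 to 20.

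Of the lower calls, 15 of 24 with POG and 15 of 22 with DEG were among 28 further targets of NF-κB. With POG 15 of the 28 were lower and 1 higher, with a median log2 fold change of −0.26, and with DEG 15 were lower and 1 higher, with a median of −0.27. The median of all genes was 0.00 in both, and the shares of all genes called lower were 8.57% and 6.11%. With serum 13 were higher and 11 lower, with a median of 0.15 that ran from −0.03 to 0.15 over the alternatives. The shares of all genes were 21.4% and 20.9%. With RES 7 were higher and 6 lower, beside 4.94% and 6.21% of all genes, and the median was 0.05 (−0.0029 to 0.08 over the alternatives). The higher count for RES ran from 2 to 8. The lower count ran from 14 to 17 for POG and from 13 to 17 for DEG over the alternatives. The chemokine CXCL3 fell from 41.8 ± 0.362 CPM (SD, n = 2) in the negative controls to 23.7 ± 1.22 (n = 3) with POG and 22.7 ± 0.173 (n = 2) with DEG. CXCL1, another neutrophil chemokine, fell from 617 ± 2.97 CPM to 392 ± 5.02 and 389 ± 4.13. IL6, a cytokine that osteoblasts use to signal to osteoclast precursors, was at 985 ± 16.7 CPM in the negative controls and fell to 595 ± 11.5 with POG (−0.73 ± 0.03, FDR 7.96e-101). CCL2, a monocyte chemokine, fell with DEG from 287 ± 0.590 to 182 ± 5.08 CPM (−0.66 ± 0.04, FDR 4.97e-57). ICAM1 and BIRC3, which rose with both compounds, thus moved against most of the other targets.

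Other targets stood out with serum and RES. With serum, CSF2, a growth factor of myeloid cells, rose from 25.3 ± 0.277 to 65.0 ± 3.37 CPM (1.36 ± 0.06, FDR 1.05e-125). TNFRSF9, a receptor of activated T cells, rose by 2.53 ± 0.38 from a level of only 0.332 CPM, and CX3CL1, a membrane-bound chemokine, fell by 1.13 ± 0.24 from 2.15 CPM. With RES, PTGS2, the inducible cyclooxygenase, fell from 152 ± 1.41 to 116 ± 2.41 CPM (−0.39 ± 0.04, FDR 2.39e-16). CCL2 was lower with RES (−0.28 ± 0.03, FDR 2.00e-12), and CCL5, a T cell chemokine, was higher (0.26 ± 0.06, FDR 1.77e-04).

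**Figure D4:**
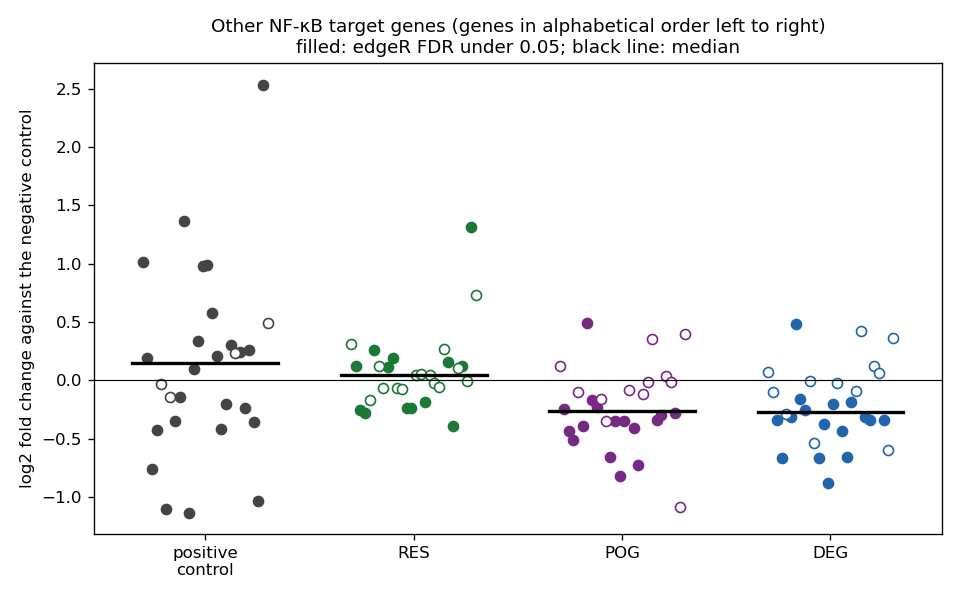
Log2 fold change against the negative control (y axis) of 28 further NF-κB targets (1 point a gene) in the positive control, RES, POG and DEG (x axis), with filled points for edgeR FDR under 0.05 and a black line at the median. The medians are 0.15, 0.05, −0.26 and −0.27.

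IL1A and IL1B encode the IL-1 cytokines, which activate the pathway. Of 8 ligands tested, 2 were higher with serum, beside 21.4% of all genes. They were IL1A, by 2.33 ± 0.08, and IL1B, from 317 ± 0.114 to 968 ± 41.1 CPM. RES had 1 ligand higher and 0 lower (4.94% and 6.21% of all genes), POG 1 and 2 (5.93% and 8.57%), and DEG 0 and 1 (3.52% and 6.11%). IL1B fell with POG (−0.23 ± 0.03, FDR 6.49e-09) and DEG (−0.22 ± 0.03, FDR 1.20e-06). IL1A went the other way with POG (0.25 ± 0.09, FDR 0.0449), a call lost in 7 of 12 alternatives. IL1R1, the receptor that both bind, went down in all 4 comparisons, from 169 ± 3.23 CPM in the negative controls. It was at 96.3 ± 0.855 CPM in the positive controls, 149.6 ± 0.696 in RES, 111 ± 1.73 in POG and 115 ± 0.503 in DEG. TLR4, the receptor for bacterial lipopolysaccharide, fell with POG (−0.52 ± 0.06, FDR 1.05e-12) and DEG (−0.42 ± 0.07, FDR 1.30e-06). TLR2 (−1.55 ± 0.22) and the adaptor TRAF1 (−0.55 ± 0.08) fell with serum, and the TNF receptor TNFRSF1B rose with RES (0.26 ± 0.04, FDR 2.14e-07). Among 23 receptors and adaptors, 5 were higher and 4 lower with serum, which is near the shares over all genes of 21.4% and 20.9%. RES had 2 higher and 2 lower (4.94% and 6.21% of all genes), POG 0 and 3 (5.93% and 8.57%), and DEG 0 and 2 (3.52% and 6.11%). The higher count for RES ran from 1 to 7 over the alternatives.

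The enzymes and the other feedback genes of the pathway were counted in the same way. Of 17 kinases and ligases, 2 were higher and 7 lower with serum, beside 21.4% and 20.9% of all genes, and the lower count ran from 3 to 9 over the alternatives. RES had 2 higher and 1 lower, beside 4.94% and 6.21%. POG and DEG each had 0 higher and 3 lower, beside 8.57% and 6.11% of all genes that were lower, and the lower count ran from 1 to 6 for POG and from 1 to 4 for DEG. IKBKE, a non-canonical IκB kinase, fell from 21.4 ± 0.261 CPM to 15.5 ± 0.544 with POG (FDR 5.17e-08) and 13.5 ± 1.61 with DEG (FDR 1.94e-12). UBE2N, the enzyme that makes the ubiquitin chains of the pathway, rose with serum (0.32 ± 0.04, FDR 1.52e-10). Of 10 other negative feedback genes, 3 were higher and 3 lower with serum, beside 21.4% and 20.9% of all genes. RES had 1 higher and 2 lower (4.94% and 6.21% of all genes), POG 0 and 1 (5.93% and 8.57%), and DEG 1 and 1 (3.52% and 6.11%). ZC3H12A, an RNase that cuts cytokine mRNAs, was lower in all 4 comparisons with the negative control, with log2 fold changes of −0.21 with serum (FDR 1.66e-05), −0.13 with RES (FDR 0.0161), −0.24 with POG (FDR 7.51e-08) and −0.26 with DEG (FDR 6.47e-07). The call for RES was lost on plain library totals (FDR 0.0754) and without negative control 1 (FDR 0.0971), negative control 2 (FDR 0.231), RES 1 (FDR 0.0600) or RES 2 (FDR 0.0714). CYLD, a deubiquitinase of the pathway, fell with serum (−0.30 ± 0.05, FDR 4.35e-07).

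Of the 5 other subunits and inhibitors, REL and BCL3 moved most with serum. REL, the remaining family member with an activation domain, went from 32.6 ± 2.26 CPM in the negative controls to 22.4 ± 4.74 with serum (−0.55 ± 0.08, FDR 5.64e-10). It was 39.7 ± 0.725 CPM with POG (0.28 ± 0.07, FDR 0.00196) and 38.6 ± 2.36 with DEG (0.24 ± 0.08, FDR 0.0315). Without negative control 2 the calls for POG and DEG were lost (FDR 0.160 and 0.383), without DEG 2 that for DEG was lost (FDR 0.386), and with DESeq2 neither passed (adjusted p 0.0856 and 0.246). BCL3, a nuclear partner of the NFKB1 and NFKB2 products, rose with serum from 95.4 ± 0.550 to 129 ± 8.19 CPM (0.44 ± 0.04, FDR 2.56e-19). BCL3 was also higher with RES, at 106 ± 3.13 CPM (0.15 ± 0.04, FDR 0.00773), a call lost in 3 of 12 alternatives. With POG and DEG it stood at 89.0 ± 2.70 and 93.5 ± 0.804 CPM, and neither was called against the negative control. POG was lower than RES in BCL3 (−0.25 ± 0.04, FDR 1.59e-09), and DEG was lower than RES as well (−0.18 ± 0.04, FDR 4.21e-04).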

How the data were processed

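Polyadenylated RNA of hFOB 1.19 cells was sequenced as read pairs. Per the methods, the authors aligned reads to hg38 with STAR (BWA MEM is named too) and counted Ensembl genes with featureCounts. They deposited raw counts per gene. Versions, annotation release and strand setting are not given in the sources used here. Symbols were matched for 43177 of 43836 genes, and the coordinates and exon lengths are those of GENCODE v44 on hg38. Every count column mapped to a labelled sample (0 did not), and 12 of 13 samples had one.

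Counts were scaled by TMM and compared with edgeR's exactTest (edgeR 4.0.16, limma 3.58.1, R 4.3.3), two-sided, with dispersions from all 12 libraries (common biological variation 3.21%). The 17092 genes that passed filterByExpr held 99.967% of reads. Calls had a Benjamini-Hochberg FDR under 0.05 over those genes. SEs and 95% intervals come from a quasi-likelihood fit with the same design, and they cover only the spread between libraries. Levels are TMM-scaled CPM, and groups are given as mean ± SD. The scripts were tested on simulated data. From each pathway list and each comparison with the negative control, up to 3 called genes were named, ranked by size of change, if a group mean reached 1 CPM and the libraries of the groups did not overlap. CXCL1 and CXCL3, IL1R1, BCL3, REL and CCL2 are described in further groups after their values were seen. Alternatives were the quasi-likelihood test, DESeq2 1.42.0, DESeq2 size factors, plain totals, other filters, dispersions from the pair compared, and each library left out. The genes and lists were chosen with earlier results of these data known.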

Additional observations from a re-analysis of the deposited data

How the results depend on the processing

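Over 1180 recomputed values (10 genes, 10 comparisons, 11 to 13 alternatives), 1096 kept their side of the threshold. Of the rest, 59 lost a call, 25 gained one and 0 reversed a call. A value that passed in neither setting could change sign and still count among the 1096. RELA with serum against the negative control, for example, ran from −0.06 to 0.03. The number of the 10 genes called moved by over 1.5 times in 3 comparisons, each time with 1 library left out: from 4 to between 1 and 4 for RES against the negative control, from 8 to between 5 and 7 for DEG against the negative control, and from 6 to between 3 and 6 for POG against RES. The lowest counts came without negative control 1, negative control 1 and POG 2. With 1 library left in a group, that library is assumed to vary like the other groups. Of 57 further named values, 36 kept their call in every alternative, 21 lost it in some and 0 reversed.

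Over all genes, DEG against POG had 179 calls, and 103 with the quasi-likelihood test, 116 with no filter, 838 with dispersions from the pair and 32 to 100 with a library left out. DEG against the negative control had 1646 and 2573 with dispersions from the pair, and 850 to 931 with a library left out. Without a library, RES fell from 1906 to between 881 and 1465, POG from 2478 to between 1362 and 1941, and DEG against RES from 3616 to between 2068 and 3061. Against the negative control, plain totals moved the share of higher calls from 44.3% to 64.0% for RES, 40.9% to 56.0% for POG, 36.6% to 49.3% for DEG and 50.6% to 41.0% for serum. For serum against RES, POG and DEG it moved from 50.8% to 34.8%, 50.4% to 36.7% and 51.3% to 37.7%. Plain totals leave out the TMM factors, which were 0.961 and 0.968 in the positive controls, 0.994 in the negative controls and 1.01 with the compounds. Why the factors differ was not tested.

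Each of the 10 genes had at least 1108 reads in each library, and groups held 2 or 3 libraries. Which of depth and group size limits the tests was not tested. No paired analysis was possible because the labels give the libraries no replicate numbers.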
